A study of Saccharomyces cerevisiae with 20 samples.

Results

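The strains described here each carried 1 amino acid substitution at residues 19 to 28 of histone H3, in the N-terminal tail that leaves the nucleosome. They were taken from the deposited barcode table by residue number, all such strains being included. The table named 18 such strains, over 10 residues, among 422 named strains. All 18 reached the required mean of 10 counts per library, as did 347 of the 422 named strains, of which 297 were single substitutions. The mean count of the 18 strains lay between 185 and 1450 per library, and the lowest single count was 74.

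The study asked which histone residues affect chronological lifespan (CL), the time that cells which no longer divide survive. A pool of barcoded mutants of budding yeast derived from strain JDY86 was grown in rich medium, diluted into fresh medium and kept shaking for weeks. In this MATa background NatMX4 replaced hht1-hhf1, and hht2-hhf2 carried a synthetic H3 and H4 gene pair with URA3, so the altered copy was the only source of H3. The strains shared auxotrophic alleles of HIS3, LEU2, TRP1, URA3 and MET15 and the can1::MFA1pr-HIS3 reporter. The genotype in the paper also lists an allele printed as K2Δ0. Samples of days 0, 1, 2, 3, 5, 7, 14, 24, 34 and 44 were parted on a Percoll density gradient into a dense quiescent and a lighter non-quiescent fraction, which gave 20 libraries, 1 for each fraction and day. Each substitution was carried by 1 strain, so that its effect and any other difference of that strain cannot be told apart. There was 1 culture and no replicate, so that p-values below cover the scatter of libraries about a model within that culture, not differences between cultures. The counts measure barcode DNA and not viability.

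Lysines in the H3 tail are acetylated by enzymes such as Gcn5, which neutralises their charge and is linked to open, transcribed chromatin. H3K23 and H3K27 are both acetylated in budding yeast, which lacks the Polycomb methyltransferase that acts on H3K27 in animals. Glutamine is commonly used to mimic acetylated lysine, arginine to keep the positive charge of unmodified lysine, aspartate to mimic phosphorylated serine, and alanine to remove the side chain. H3S28 is phosphorylated at mitosis in mammalian cells, next to H3K27.

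Each strain was counted by a pair of 20-base barcodes, the up and the down tag, which were amplified separately. The barcodes of the strains on which the results below turn are shown here, since they are what was sequenced, written in the direction of the barcode table. Both alanine strains of adjacent residues, their charge-keeping or acidic counterparts, the glutamine strain of H3K27 and the H3L20A strain are given.
H3L20A up: aagatagtcgccgaactcgc
H3L20A down: acctttgaagtgtgcagaag
H3K27A up: aactagcgggaagctcttgc
H3K27A down: aatcagccgtaacgtgagag
H3K27R up: gggcacgtaacaattccaca
H3K27R down: gctactaggcaacttcctta
H3K27Q up: gactctattcaaggttctcc
H3K27Q down: ccaactcgggttaatggatg
H3S28A up: atcgagcacgtaaccgttgc
H3S28A down: agatcactgtaaccgccgag
H3S28D up: agcagtggccgattcccttt
H3S28D down: ccacgcgaagaacggattta
Set beside the barcodes of all other named strains, position by position, every barcode of the 18 strains differed from its nearest neighbour at 6 or more of the 20 bases. Up and down counts of all 18 strains lay on 1 side of the median strain at day 44 over day 0 in the quiescent fraction, as did those of 303 of the 347 kept strains (87.3%).

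Libraries held 126647 to 337544 counts, and the 18 strains took 3.93% to 6.75% of them. Levels are given below as counts per 10000 counts of the library, and each is a share of the pool, not a number of cells. The level of the median kept strain was 19.8 at day 7 and 15.0 at day 44 in the quiescent fraction and stood at 18.4 and 19.7 in the non-quiescent fraction. In the quiescent day 24 library, 12.4% of the counts came from down barcodes. Each day 5 library was closer to the day 3 library of the other fraction than to that of its own. Over the 347 kept strains the SD of the log2 difference was 0.31 between the non-quiescent day 5 and the quiescent day 3 library, against 0.82 between the non-quiescent libraries of these days. For the quiescent day 5 library it was 0.43 against the non-quiescent and 0.75 against the quiescent day 3 library. Set against day 7 over the 347 strains, the non-quiescent day 5 library was closer to its own fraction (0.38) than to the quiescent fraction (0.54). The quiescent day 5 library was closer to the non-quiescent (0.57) than to the quiescent day 7 library (0.85). Over the 18 strains alone, both day 5 libraries were closer to the day 7 library of the other fraction. The SD was 0.21 against 0.28 for the non-quiescent and 0.29 against 0.42 for the quiescent day 5 library. Whether the day 3 or the day 5 libraries were out of place was not tested. Among the 18 strains, H3S28A stood at 79.9 in the non-quiescent day 5 and 89.9 in the quiescent day 3 library, and at 40.3 and 40.2 in the reverse pair. Results that rest on day 5 are therefore given with and without it.

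The central question was how the substituted strains changed in the quiescent fraction once growth had ended, from day 7 to day 44. Of the 18 strains, 6 rose (H3L20A, H3K23Q, H3R26A, H3K27A, H3K27R and H3S28D) and 1 fell (H3S28A). Over all 347 strains, 40.6% passed the same test, 17.9% rising and 22.8% falling. Slopes were fitted on day in edgeR, with 1 library a day (5 in all) and p-values adjusted over all 347 strains. The median slope of the 18 strains was 0.15 log2 units per 10 days, against 0.01 over all strains.

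At H3K27, the alanine and arginine strains rose. H3K27A stood at 23.8 per 10000 at day 7 in the quiescent fraction, then at 31.7, 41.0, 39.7 and 41.9 at days 14, 24, 34 and 44. Its levels in the non-quiescent libraries of the same days were 21.6, 23.6, 24.8, 22.4 and 25.9. The last 4 quiescent levels lay above all 5 non-quiescent levels, and the slope was 0.32 ± 0.07 log2 units per 10 days (SE, adjusted p = 0.0105 by edgeR). H3K27R, which keeps the positive charge, went from 20.7 to 32.3, 30.6, 34.2 and 36.0 in the quiescent fraction. In the non-quiescent fraction it stood between 18.9 and 22.1, so that the quiescent levels were again higher from day 14 on. Its slope was 0.28 ± 0.06 (SE, adjusted p = 0.0105).

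The third substitution of this lysine, the acetyl mimic H3K27Q, behaved otherwise after day 7. Its quiescent levels at days 7, 14, 24, 34 and 44 were 76.0, 76.0, 64.1, 69.4 and 67.1, and its slope of 0.06 ± 0.07 (SE) did not pass the test (adjusted p = 0.466). It was the most abundant of the 18 strains in all 10 of these libraries but had gained that level earlier, as described below for the first days. From day 7 to day 44 in the quiescent fraction, H3K27A exceeded H3K27Q by 1.00 log2 units (95% counting interval 0.78 to 1.21), and H3K27R exceeded H3K27Q by a similar margin, with H3K27Q less H3K27R at -0.98 (-1.21 to -0.75). H3K27A less H3K27R was 0.02 (-0.25 to 0.29). These intervals come from the 4 counts of a pair and cover counting error only.

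The neighbouring serine gave the widest contrast. H3S28A, which cannot be phosphorylated at this site, stood at 74.8 per 10000 at day 7 in the quiescent fraction and at 39.9, 37.6, 22.6 and 19.3 at days 14, 24, 34 and 44. In the non-quiescent fraction its levels were 46.8, 47.0, 48.4, 48.7 and 45.1. It was thus higher in the quiescent than in the non-quiescent library at day 7 and lower from day 14 on. Its slope was -0.39 ± 0.08 (SE, adjusted p = 0.00783), the only falling call among the 18 strains. Before day 7 it had stood at 57.1, 46.2, 65.4 and 89.9 in the quiescent fraction on days 0 to 3, all above its levels from day 14 on. H3S28D, with an acidic residue at this position, stood at 31.6, 45.3, 39.9, 44.2 and 44.1 in the quiescent fraction. Its slope was 0.20 ± 0.06 (SE, adjusted p = 0.0291), while its non-quiescent levels lay between 31.2 and 38.7. H3S28A less H3S28D was -2.43 log2 units from day 7 to day 44 (95% counting interval -2.68 to -2.19) and -2.31 from day 0 (-2.56 to -2.05), the widest of the 10 pairs of substitutions at 1 residue.

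H3L20A had the steepest rise of the 18 strains. Leucine has a hydrophobic side chain that is neither acetylated nor phosphorylated. Its quiescent levels were 18.6, 28.3, 32.7, 38.3 and 39.4 at days 7 to 44, each higher than the one before, while the non-quiescent levels stood between 22.4 and 28.3. The slope was 0.38 ± 0.07 (SE, adjusted p = 0.00465), at rank 30 of 347 from the highest. At day 7 it was lower in the quiescent than in the non-quiescent library, and from day 14 on it was higher. Its quiescent levels on days 0 to 3 had been 25.5, 25.0, 20.1 and 20.4. These lay above the day 7 level and below the levels from day 14 on.

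The 3 substitutions of H3K23, a lysine acetylated in yeast, had similar slopes. H3K23Q went from 16.9 to 19.7, 21.2, 19.5 and 21.8 in the quiescent fraction, a slope of 0.19 ± 0.05 (SE, adjusted p = 0.0245). H3K23A (0.17 ± 0.06 SE, adjusted p = 0.0534) and H3K23R (0.14 ± 0.06 SE, adjusted p = 0.0747) did not pass. From day 7 to day 44 no pair of the 3 was separated by its counting interval: H3K23A less H3K23Q was -0.10 (-0.39 to 0.19), H3K23A less H3K23R was 0.00 (-0.26 to 0.26) and H3K23Q less H3K23R was 0.10 (-0.20 to 0.40). Up and down barcodes alone gave -0.11 and -0.16 for the first of these pairs. They gave -0.28 and -0.10 for H3K23A less H3K23R, and -0.17 and 0.06 for H3K23Q less H3K23R. Counted from day 0, H3K23Q exceeded H3K23R by 0.59 (0.28 to 0.90), and H3K23A less H3K23Q was -0.52 (-0.83 to -0.22). Up barcodes alone separated both pairs, at 0.66 (0.25 to 1.06) and -0.67 (-1.04 to -0.30). Down barcodes alone separated neither, at 0.47 (-0.03 to 0.98) and -0.16 (-0.72 to 0.39).

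At H3R26, an arginine that is methylated in mammals, alanine passed and lysine did not. H3R26A had quiescent levels of 22.5, 26.1, 29.8, 27.05 and 29.1 at days 7 to 44 and a slope of 0.20 ± 0.05 (SE, adjusted p = 0.0245). Its non-quiescent levels, from 24.2 to 32.5, covered most of the same range. The charge-keeping H3R26K was the rarest of the 18 strains and had a slope of 0.10 ± 0.07 (SE, adjusted p = 0.279). The difference between both strains from day 7 to day 44 was 0.29 (95% counting interval -0.10 to 0.67).

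The other slopes did not pass. They were 0.16 ± 0.06 (SE) for H3A21S, 0.15 ± 0.05 for H3Q19E and 0.14 ± 0.05 for H3S22A, with adjusted p of 0.0540, 0.0578 and 0.0601. H3S22D, H3A25S, H3Q19A and H3A24S had slopes between -0.03 and 0.01. Of the 7 alanine substitutions, 3 rose and 1 fell, and none of the 3 alanines changed to serine passed. The wild type stood between 65.9 and 71.3 per 10000 in these 5 libraries, with a slope of 0.10 ± 0.07 (SE, adjusted p = 0.254).

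These calls depended on the scale. With counts scaled to library totals the median slope of all strains moved to -0.10 per 10 days, the split of all calls from 62 rising and 79 falling to 33 and 109, and the members called to H3L20A, H3K27A and H3S28A, and the same 3 passed with the wild type as reference (33 rising and 98 falling over all strains). Without the quiescent day 7 library H3L20A alone passed, the H3S28A slope being -0.27 (adjusted p = 0.0670) and the H3K27A slope 0.23 (adjusted p = 0.115), and without day 14 or day 34 H3L20A, H3K27A, H3K27R and H3S28A passed.

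In the non-quiescent fraction the slopes of the same strains over these days were near 0. None of the 18 passed the test in edgeR, as none of all 347 did (0%), 1 of the 18 was under an unadjusted p of 0.05, as were 37 of all, and DESeq2 also called 0. The 18 slopes lay between -0.02 and 0.07 log2 units per 10 days. The level of H3S28A varied 1.08-fold from lowest to highest over the 5 non-quiescent libraries, against 3.87-fold over the 5 quiescent ones. For H3L20A these ranges were 1.26-fold and 2.12-fold, and for H3K27A they were 1.20-fold and 1.76-fold.

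Whether the slopes differed between the fractions was tested as the interaction of fraction and day, with day as a block. The quiescent slope was higher in 3 of the 18 strains and lower in 1, against 11% and 14.4% of all strains and 25.4% in either direction. It exceeded the non-quiescent slope by 0.34 ± 0.09 log2 units per 10 days in H3L20A (SE, adjusted p = 0.0325), by 0.28 ± 0.07 in H3K27A (adjusted p = 0.0309) and by 0.26 ± 0.06 in H3K27R (adjusted p = 0.0270). In H3S28A the difference was -0.36 ± 0.08 (SE, adjusted p = 0.0270). H3R26A, H3K23Q and H3S28D, which rose in the quiescent fraction, had differences of 0.16, 0.16 and 0.14 that did not pass (adjusted p = 0.0563, 0.0728 and 0.119). By DESeq2 H3K27A (adjusted p = 0.0783) and H3K27R (adjusted p = 0.111) did not pass, and with up barcodes alone H3K27R did not (adjusted p = 0.0506). Scaled to library totals or to the wild type, H3S28A alone passed, with 17 higher and 93 lower over all strains for totals and 14 and 68 for the wild type, against 38 and 50. Without the day 7 or the day 34 libraries 0 of the 18 passed, and without day 14 H3S28A alone did.

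Levels themselves were also set side by side between the fractions. Over days 14 to 44, 10 of the 18 strains were higher in the quiescent fraction and 2 were lower, against 32.6% and 32.9% of all strains and 65.4% in either direction. This comparison was run only by edgeR with TMM scaling, and no library was left out in turn. The largest differences were 0.89 ± 0.14 log2 units for H3K27A (SE, adjusted p = 0.00263), 0.87 ± 0.11 for H3K27R (adjusted p = 0.00160) and 0.68 ± 0.11 for H3L20A (adjusted p = 0.00329). All 3 substitutions of H3K23 were higher, H3K23A by 0.58 ± 0.10, H3K23Q by 0.49 ± 0.10 and H3K23R by 0.42 ± 0.09. H3S28D, H3A21S, H3S22A and H3Q19E were higher by 0.31 to 0.49. The 2 lower strains were H3S28A at -0.51 ± 0.15 (SE, adjusted p = 0.0212) and H3A24S at -0.22 ± 0.08 (adjusted p = 0.0485).

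Over days 1 to 3 the difference ran the other way for most of the 18 strains. None passed in edgeR, against 2.31% higher, 3.46% lower and 5.76% of all strains in either direction, and 7 of the 18 were under an unadjusted p of 0.05, all of them lower in the quiescent fraction, as against 119 of all 347 in either direction. H3L20A stood at -0.51 ± 0.14 (SE, adjusted p = 0.0731), H3K27A at -0.49 ± 0.18 and H3A25S at -0.72 ± 0.15 (adjusted p = 0.0539). This comparison was run only by edgeR with TMM scaling, and was not repeated without day 3. Over all 10 days the fraction term left 0 of 18 strains, and 0% of the 347, past the threshold, with 1 strain (H3K23A) under an unadjusted p of 0.05 (87 of all strains) and 0 by DESeq2 (56 of all strains). Without day 5 it also left 0 of the 18, and 47 of all 347.

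The first days, which include growth in the diluted culture, were compared as days 1 to 3 against day 0 with fraction in the model. Day was not a block in this model, although both fractions of a day came from 1 sample of the culture. Of the 18 strains, 4 rose and 0 fell, against 25.4% and 28.8% of all strains and 54.2% in either direction. DESeq2 called 0 falling members as well, and the 6 members under an unadjusted p of 0.05, against 208 of all 347 strains in either direction, were all higher after day 0. The risen strains were H3S22D, H3A25S, H3R26K and H3K27Q, none of which passed the later slope test in the quiescent fraction.

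H3S22D, an acidic substitution of a serine, stood at 21.97 per 10000 in the non-quiescent day 0 library and at 79.2, 74.2 and 79.8 on days 1, 2 and 3. In the quiescent fraction it stood at 23.8 and then at 50.2, 58.0 and 57.5. The shift over both fractions was 1.46 ± 0.21 log2 units (SE, adjusted p = 0.000711), at rank 3 of 347. H3K27Q went from 36.4 to 131, 111 and 127 in the non-quiescent fraction and from 41.0 to 75.8, 87.8 and 88.0 in the quiescent fraction, a shift of 1.33 ± 0.24 (SE, adjusted p = 0.00285). All 6 later levels of either strain lay above both of its day 0 levels.

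H3A25S, a serine in place of alanine, went from 18.3 to 76.6, 65.1 and 68.3 in the non-quiescent fraction and from 29.2 to 43.6, 49.2 and 46.9 in the quiescent fraction. Its shift was 1.18 ± 0.29 (SE, adjusted p = 0.00875). H3R26K went from 5.15 to 15.1, 13.2 and 14.5 in the non-quiescent and from 6.52 to 12.1, 10.6 and 9.39 in the quiescent fraction, a shift of 1.01 ± 0.25 (SE, adjusted p = 0.00876). The gain was larger in the non-quiescent libraries of each of the 4 strains. Without the non-quiescent day 0 library H3S22D and H3K27Q alone passed, with shifts of 1.13 and 0.95, and H3A25S stood at 0.59 (adjusted p = 0.0811).

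The other substitutions at the same residues gave other values in these days. H3S22A stood at -0.07 ± 0.18 (SE), H3R26A at 0.17 ± 0.16, H3K27A at 0.11 ± 0.18 and H3K27R at -0.37 ± 0.20, and none of them passed. The wild type stood at 0.29 ± 0.14 (SE, adjusted p = 0.109). With the wild type as reference the median shift of all strains moved to -0.26, the split of all calls to 40 rising and 125 falling from 88 and 100, and H3K27R fell while the same 4 strains rose.

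From day 0 to day 44 in the quiescent fraction, growth and the later course are summed. Relative to the median strain, 15 of the 18 strains lay higher and 3 lower, with a median log2 ratio of 0.68. The 279 other kept single substitutions had a median of 0.00, with 139 of them higher. More than 2-fold from the median strain lay 2 of the 18 strains above and 1 below, against 14.1% and 26.5% of all strains and 40.6% in either direction. H3K27A was highest at 1.30 (95% counting interval 1.11 to 1.49, 344 and 705 counts), followed by H3K23Q at 1.03 (0.79 to 1.28). H3S22D stood at 0.92 (0.75 to 1.10) and H3S28D at 0.92 (0.75 to 1.09).

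The lowest was H3S28A at -1.38 (95% counting interval -1.57 to -1.20), on 1016 counts at day 0 and 325 at day 44. H3A24S stood at -0.55 (-0.75 to -0.35), H3Q19A at -0.09 (-0.28 to 0.10) and H3S22A at 0.24 (0.03 to 0.44). The wild type stood at 0.41 (0.29 to 0.54), and 12 of the 18 strains lay above it, as did 114 of all 347. In the non-quiescent fraction the median log2 ratio of the 18 strains over the same days was 0.19, and the 4 strains that rose in the first days were the highest there, at 1.01 to 1.09.

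By the kind of change, the 3 acidic substitutions (H3Q19E, H3S22D and H3S28D) had quiescent day 44 ratios of 0.75 to 0.92 and all lay above the wild type. So did both acetyl mimics (0.89 and 1.03) and the 3 charge-keeping strains (0.44 to 0.83). H3K23R lay 0.03 above the wild type, whose value was within the counting interval of H3K23R (0.26 to 0.62). From day 7, H3S22D (-0.03) and H3K27Q (0.13) lay below the wild type (0.30), and the other strains of these kinds above it. The 7 alanine strains ran from -1.38 to 1.30 from day 0. At a single residue the kind of change could be compared directly. H3Q19A less H3Q19E was -0.84 (95% counting interval -1.11 to -0.58), and H3S22A less H3S22D was -0.69 (-0.96 to -0.41). From day 7 on the H3S22 pair turned, to 0.48 (0.21 to 0.74), while the H3Q19 pair stayed at -0.64 (-0.90 to -0.37). Up and down barcodes alone gave 0.44 and 0.18 for the H3S22 pair, and -0.72 and -0.64 for the H3Q19 pair. Of the 10 pairs, 7 had a day 0 to day 44 interval that left out 0, and those that did not were H3K23A with H3K23R (0.07, -0.18 to 0.32), H3R26A with H3R26K (-0.39, -0.79 to 0.01) and H3K27Q with H3K27R (0.07, -0.16 to 0.30).

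Over all 10 quiescent libraries, the slope on log2 of day plus 1 rose in 9 of the 18 strains and fell in 1, against 21.6% and 27.1% of all strains and 48.7% in either direction. The steepest rises were those of H3K27A (0.29 ± 0.05 log2 units per doubling, SE, adjusted p = 0.00136), H3K27R (0.24 ± 0.06, adjusted p = 0.00935) and H3L20A (0.19 ± 0.06, adjusted p = 0.0139). H3K23Q, H3S28D, H3K23A, H3Q19E, H3K23R and H3A21S rose by 0.10 to 0.19. H3S28A fell, at -0.24 ± 0.09 (SE, adjusted p = 0.0473). Without the quiescent day 5 library 11 strains rose and H3S28A no longer passed (-0.22, adjusted p = 0.0598), nor did it without day 2, 3, 14, 24, 34 or 44, and without day 34 or day 44 the rising strains numbered 5. Scaled to totals 4 rose and 2 fell (49 and 104 of all strains), and to the wild type 2 rose and 2 fell (43 and 131 of all strains, against 75 and 94). In the non-quiescent fraction 0 of the 18 passed, against 0.865% rising, 5.76% falling and 6.63% of all strains in either direction, with 2 under an unadjusted p of 0.05 (77 of all strains) and 1 (H3K23A, rising) called by DESeq2 (38 of all strains). Without the non-quiescent day 5 library the count was also 0.

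H3 tail deletions that remove several of these residues at once gave a second view. Of the 9 kept deletions that lie within residues 17 to 32, 4 rose in the quiescent fraction from day 7 and 0 fell by edgeR. Over all strains 17.9% rose and 22.8% fell. Of the falling slopes of these deletions, 0 were under an unadjusted p of 0.05. The deletion of residues 17 to 24, which removes H3L20 and H3K23, had a slope of 0.51 ± 0.06 log2 units per 10 days (SE, adjusted p = 0.00203), and its level was 8.41 per 10000 at day 7 and 24.6 at day 44. The deletion of residues 25 to 28, which removes H3K27 and H3S28, had a slope of 0.30 ± 0.07 (SE, adjusted p = 0.0170), and levels of 11.9 and 24.1. Those of residues 21 to 28 (0.25 ± 0.06, adjusted p = 0.0182) and 21 to 32 (0.24 ± 0.06, adjusted p = 0.0216) also rose. The other 5 did not pass. The deletion of residues 17 to 20, which removes H3L20, stood at 0.19 ± 0.08 (SE, adjusted p = 0.0929), that of residues 25 to 32, which removes H3K27 and H3S28, at 0.10 ± 0.05 (adjusted p = 0.120), that of residues 28 to 31 at 0.09 ± 0.05 and that of residues 21 to 24, which removes H3K23, at -0.03 ± 0.06 (adjusted p = 0.647). The deletion of residues 17 to 32 fell in the first days, with a shift of -3.99 ± 0.35 (SE, adjusted p = 4.38e-05), and its level stayed at or under 1.51 from day 1 on, on 7 to 24 counts a library. Its slope from day 7 was -0.22 ± 0.20 (SE, adjusted p = 0.399).

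Of all 19 kept deletions that remove some of residues 19 to 28, 11 fell in the first days and 0 rose, against 28.8% and 25.4% of all strains. From day 7 in the quiescent fraction 4 of the 19 rose and 1 fell, against 17.9% and 22.8% of all strains. The median slope of the 19 was 0.04 log2 units per 10 days. Their quiescent day 44 over day 0 ratios ran from -8.01 to 1.23 with a median of -2.37.

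The adjoining stretches of H3 gave the following counts, with differences between the stretches not tested. Slopes in the quiescent fraction from day 7 rose in 7 and fell in 1 of 19 strains at residues 9 to 18 (median 0.18). At residues 29 to 43 they rose in 1 and fell in 3 of 25 strains (median -0.07). Over all strains 17.9% rose and 22.8% fell. The quiescent day 44 over day 0 ratio had medians of 0.51 at residues 9 to 18 and -0.29 at residues 29 to 43.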

How the data were processed

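Barcodes were amplified from genomic DNA of 1 pooled culture, parted into quiescent and non-quiescent cells on 10 days, 1 library each. The authors counted up and down barcodes in single-end reads with get_seqs_from_fastq and match_barcodes_to_strain, and the deposited values are raw counts. Barcode IDs in the deposited barcode table, which hold other values than measurements, joined counts to strains, and 65 of 487 barcode pairs had no name there (10.6% to 20.7% of a library's counts) and were left out of tests. A deposited table of log2 ratios by the authors was not used. The up and down count of a strain were added, and those under a mean of 10 counts over the 20 libraries were dropped.

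Slopes and shifts were tested with the quasi-likelihood method of edgeR 4.0.16 (R 4.3.3) after scaling by TMM, at a threshold of 0.05 on p-values adjusted by Benjamini and Hochberg over 347 strains. The models had 5 (first days), 3 (both stationary slopes and their difference), 8 (whole course) and 9 (fraction, all days) residual degrees of freedom. The fraction models of days 14 to 44 and of days 1 to 3 had 3 and 2. DESeq2 1.42.0 was an alternative. Serial samples were taken as independent, and so were both fractions of a day in the model of the first days. The test was also run on simulated counts, drawn independently for each library with the same dispersion for all strains. Dependence between libraries of the culture was therefore not checked. Day ratios were log2 count ratios less the median over kept strains, with exact 95% Clopper-Pearson intervals, and pairs had the exact conditional interval of the odds ratio (Python 3.11.15, scipy 1.17.1). These reflect counting error alone, as reads copied by PCR from 1 molecule are counted separately. Every substitution was named, with full statistics for those past the threshold in a stationary slope or the early shift and for the 4 highest and 4 lowest day 44 ratios, and the wild type and deletions within residues 17 to 32 were added. Members and lists were chosen with earlier results of these data known. Alternatives were library totals or the wild type as scale, other filters, either barcode alone, other time scales and leaving out each library. The comparison of fractions over days 1 to 3, and that of slopes without days 24 and 34, were added after seeing the data.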

Additional observations from a re-analysis of the deposited data

Results flagged for a closer look

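For 4 of the 18 strains the change per 10 days from day 7 to day 44 differed between the quiescent and the non-quiescent fraction by the test of the difference itself (edgeR interaction term, adjusted over 347 strains). The quiescent less the non-quiescent slope was 0.34 in H3L20A, 0.28 in H3K27A and 0.26 in H3K27R. In H3S28A, the alanine strain of the residue next to H3K27, it was -0.36, with the opposite sign. By DESeq2 the difference passed in H3L20A and H3S28A and not in H3K27A or H3K27R. With library totals or the wild type as scale, the difference in H3S28A alone still passed. Leaving out both libraries of day 7 or of day 34 left 0 of the 18 strains past the test. Leaving out those of day 14 left H3S28A alone. Groups held 1 library each, so that no library could be set against others of its group.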

How the results depend on the processing

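Directions of the called strains held under every alternative run, while their number moved. The fraction comparisons of days 14 to 44 and of days 1 to 3 had no alternatives of their own. Leaving out 1 library or day at a time gave 2 (without the non-quiescent day 0) to 5 strains for the first days, 1 (without the quiescent day 7) to 11 (without day 24) for the quiescent slope from day 7, 0 (without day 7 or 34) to 5 for the slope difference between fractions, 5 (without day 34 or 44) to 12 for the quiescent whole course, 0 to 2 (without day 0) for the non-quiescent whole course, and 0 throughout for the non-quiescent slope from day 7 and the fraction term. Against 7 strains, the quiescent slope from day 7 counted 3 with totals, 3 with the wild type, 11 with up barcodes alone and 12 on log2 of day. Against 4, the slope difference counted 2 (H3L20A and H3S28A) by DESeq2, 1 with totals and 1 with the wild type. Against 10, the quiescent whole course counted 6 with totals and 4 with the wild type. Against 0, the non-quiescent whole course counted 1 by DESeq2, 1 with totals and 1 with up barcodes alone, and the fraction term counted 12 over days 14 to 44 and 0 without the replicate block of day. Down barcodes alone separated 4 pairs instead of 7, and no longer H3K23A with H3K23Q, H3K23Q with H3K23R or H3K27A with H3K27R. The median day 44 ratio of 0.68 became 0.27 against the wild type and 0.19 in the non-quiescent fraction. Day 44 ratios changed sign against the wild type in H3A25S (-0.0717), H3R26A (-0.0047) and H3S22A (-0.18), from day 7 in H3A25S (-0.10) and H3S22D (-0.033), with day 0 of both fractions summed in H3Q19A (0.0181), whose interval had included 0, and in the non-quiescent fraction in H3Q19A (0.15), H3A24S (0.50), H3K23R (-0.0742), H3K27R (-0.12), H3S22A (-0.0489) and H3S28A (0.0449). Without days 24 and 34, chosen after seeing the data, the slope difference again counted 4. The causes of these changes were not tested. The 18 strains had at least 74 counts in each library. The intervals of the day ratios take each read as independent, although reads copied by PCR from 1 molecule are counted separately.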
